A study of Mus musculus with 5 samples.

Results

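The paternal and maternal alleles of *Inpp5f* were counted in a stretch of 196 bases of exon 1 that was amplified in all 5 libraries of the series. This was 1 of 3 regions with a depth above 1000 reads in the genomic DNA library. The other regions lay in *Cdkn1c* and *Ndn*. *Inpp5f* was chosen from the balance of its alleles in cDNA against genomic DNA, so that contrast is described below and carries no test. PCR primers for *Inpp5f* are not given in the sources used here.

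All libraries came from F1 hybrid embryos at embryonic day 12, with C57BL/6J (B6) as the mother strain and CAST/EiJ (CAST) as the father strain. The study concerned the function of *Cdkn1c* in cortex development. Its experiment with these hybrids asked whether the silenced paternal *Cdkn1c* allele is released in cortical cells, with *Ndn* as a control. Neuron libraries (n = 2) held cDNA of cells enriched for cortical projection neurons, collected as cells negative for Prominin and CD15. RGP libraries (n = 2) held cDNA of cells enriched for radial glia progenitors, the dividing cells that produce these neurons. They were collected as Prominin+ and CD15+ cells. Cells carrying CD11b, CD31 or CD45 were gated out of both, which removes white blood cells and endothelial cells. Each cDNA library started from 10000 sorted cells, and the RNA was treated with DNase. The control library (n = 1) was genomic DNA from the carcass of 1 embryo of the same cross, whose cells were also sorted. The labels do not say whether replicates came from separate animals, so the tests below measure only the spread between these libraries, which may be technical.

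The labelled cell types could not be checked in these data. The 7 RGP markers, the 6 neuron markers and the 3 markers of gated cells examined had a depth of 0 in every library. Of 17 imprinted genes of chromosome 7 examined, 3 reached a depth of 20 in any library (*Inpp5f*, *Cdkn1c* and *Ndn*), and none of the others passed a depth of 1.

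*Inpp5f* encodes an inositol polyphosphate phosphatase with a SAC domain, which acts on phosphoinositide lipids of endosomes. The gene is known for an unusual form of genomic imprinting, the silencing of 1 parental copy by marks set in the germ line. A short variant that starts at an internal, differentially methylated promoter is expressed from the paternal copy in brain, whereas transcripts from the upstream promoter are generally described as expressed from both copies. An allele count at exon 1 of cDNA therefore reads the upstream transcripts and not the internal variant. The stretch counted here lies within exon 1. Copies made from cDNA and from any genomic DNA left after DNase thus cannot be told apart by sequence, and such carry-over was not tested.

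The gene (ENSMUSG00000042105.18) lies on the forward strand of chromosome 7, from 128611328 to 128696425 of GRCm38. The sequenced region occupied positions 128611437 to 128611632. In the GENCODE M21 annotation, 2 of the 9 *Inpp5f* transcripts have an exon over this region. Inpp5f-201 (ENSMUST00000043138.12) is protein coding, has 20 exons and begins with an exon from 128611360 to 128611691. Inpp5f-202 (ENSMUST00000098007.10) is a noncoding processed transcript of 10 exons, whose exon 1 begins at 128611328 and has the same end. The region could not tell these transcripts apart.

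The other 7 transcripts begin 47.4 to 76.9 kb after the end of the region, so none of their sequence was counted. They include 2 protein-coding transcripts, Inpp5f-208 and Inpp5f-203, which begin 75.9 and 76.9 kb downstream. Beyond the region, 2 to 6 positions at its very edges had a depth of at most 6, and no other position of the gene had a read in any library. The allele balance of transcripts that begin downstream was therefore not measured. No other gene is annotated over the region.

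**Figure D1:**
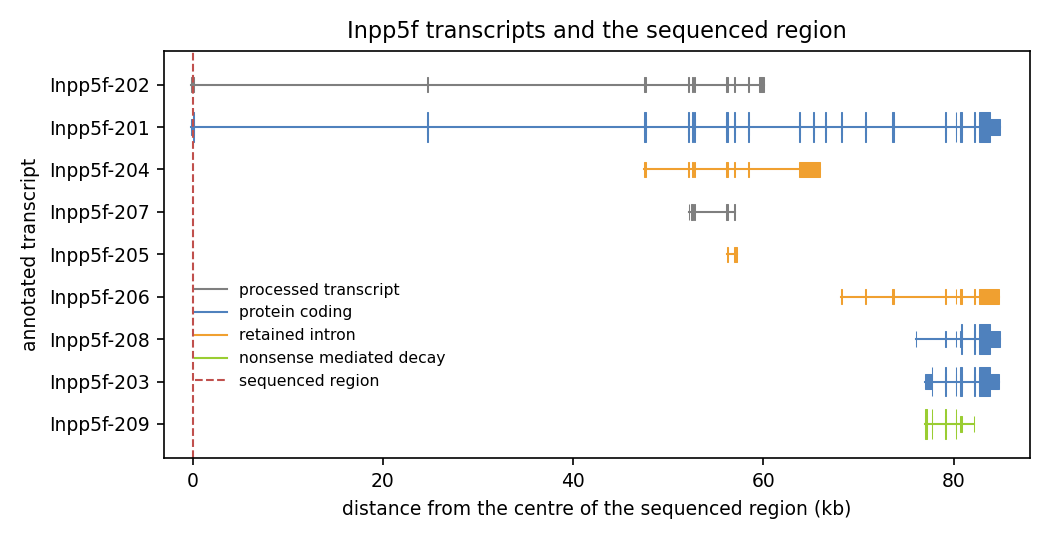
The 9 annotated transcripts of *Inpp5f* (rows) are drawn by distance in kb from the centre of the sequenced region (dashed line), with thin boxes for exons, tall boxes for coding sequence and colours for the annotated type. Inpp5f-201 and Inpp5f-202 cross the region, and the other 7 begin at least 47.4 kb away.

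The coding sequence of Inpp5f-201 begins at 128611595. The first 158 bases of the region were thus in the 5′ untranslated part of exon 1 and the last 38 bases were coding. G and C made up 68.4% of the region. Both SNPs were untranslated. C128611461G (maternal base, position on the forward strand of GRCm38, paternal base) is base 25 of the region, counted from 1 at its lowest coordinate, and lies 134 bases before the start codon. T128611501C is base 65, 40 bases further on and 94 bases before the start codon. The reference base was the B6 base at both.

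The 21 bases around each SNP are shown because every allele count rests on them. The SNP is in capitals, the strand is forward, and the windows are chr7:128611451-128611471 and chr7:128611491-128611511. The paternal lines are the reference with the SNP base exchanged.
First SNP, maternal: cttccgtgggCtgggtcctcg
First SNP, paternal: cttccgtgggGtgggtcctcg
Second SNP, maternal: actctggtggTctcggtggag
Second SNP, paternal: actctggtggCctcggtggag

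These were the only positions of the region that were heterozygous in genomic DNA, by a second base at 20% to 80% of a depth of at least 100. The lower of them had a second base at 49.4%. The next position, base 61, had one at 0.150%.

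The region took 25575 and 34340 reads in Neuron replicates 1 and 2, 37089 and 32171 in RGP replicates 1 and 2, and 33220 in genomic DNA. These were 21.0% to 26.5% of the reads in each pileup, which listed 121925 to 140178 reads. The study reports more uniquely aligned reads per sequencing than this, so these are shares of the listed reads only. The highest depth in the region was 19070 reads, whereas depth elsewhere in the files stopped between 30047 and 30055.

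Reads entered the region from its ends. In each library 97.4% to 98.0% of forward reads began at base 1 and most ended at base 97. Of the reverse reads, 98.4% to 98.7% ended at base 196, and most covered bases 100 to 196. The ratio of forward to reverse reads was 0.930 to 0.976. Both SNPs therefore sat in forward reads.

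**Figure D2:**
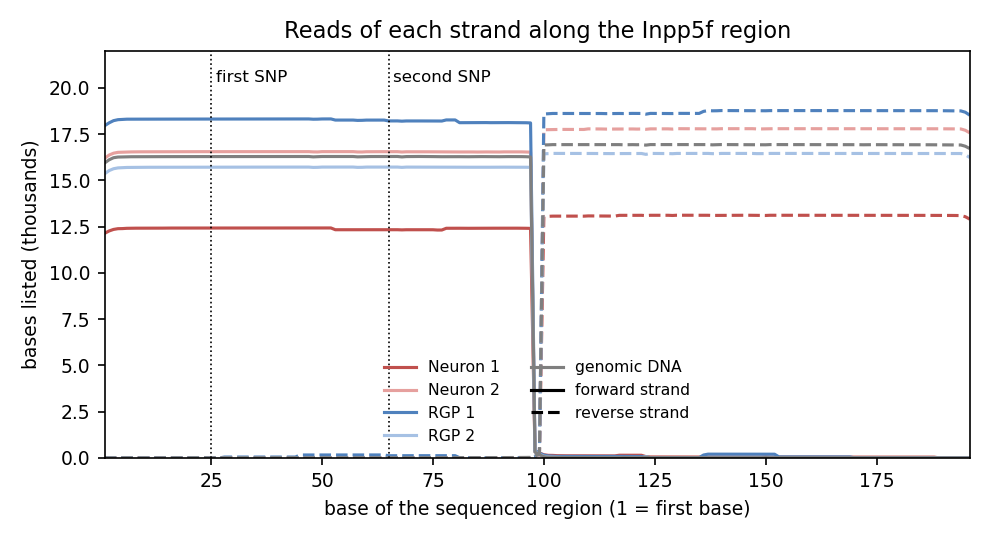
The number of bases listed per position (vertical axis, in units of 1000) is plotted along the 196 bases of the region, with 1 colour per library, solid lines for forward reads and dashed lines for reverse reads. Forward reads covered both SNPs (dotted lines, bases 25 and 65), and reverse reads covered the stretch after base 100.

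The paternal base was the more frequent one in all 4 cDNA libraries and close to equal with the maternal base in genomic DNA. All libraries share 1 direction of cross, so paternal always means CAST. An effect of the parent and an effect of the strain therefore cannot be told apart. Neuron replicate 1 had 7739 paternal and 4633 maternal bases of quality 30 or more at the first SNP, a paternal share of 62.6% (95% Wilson interval 61.7% to 63.4%). Neuron replicate 2 had 9263 and 7231, or 56.2% (55.4% to 56.9%). RGP replicate 1 had 9482 and 8766, or 52.0% (51.2% to 52.7%), the lowest of the cDNA libraries. RGP replicate 2 had 9221 and 6447, or 58.9% (58.1% to 59.6%). Genomic DNA had 8169 and 8044, or 50.4% (49.6% to 51.2%), and its interval includes 50%. Intervals cover counting error only, because PCR reads without molecular identifiers are not independent molecules.

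The mean paternal share was 59.4% ± 4.52 in neurons and 55.4% ± 4.87 in RGPs (SD, n = 2 each). Above genomic DNA, Neuron replicates 1 and 2 lay 12.2 and 5.77 percentage points, and RGP replicates 1 and 2 lay 1.58 and 8.47 points. Each cDNA share is a sum over sorted cells, so cells that use a single allele and cells that use both alleles unequally cannot be told apart. As a ratio of paternal to maternal bases, these shares are 1.67 and 1.28 in neurons, 1.08 and 1.43 in RGPs and 1.02 in genomic DNA. The gene was chosen for this difference, there is 1 genomic DNA library, and the values are given as a description.

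**Figure D3:**
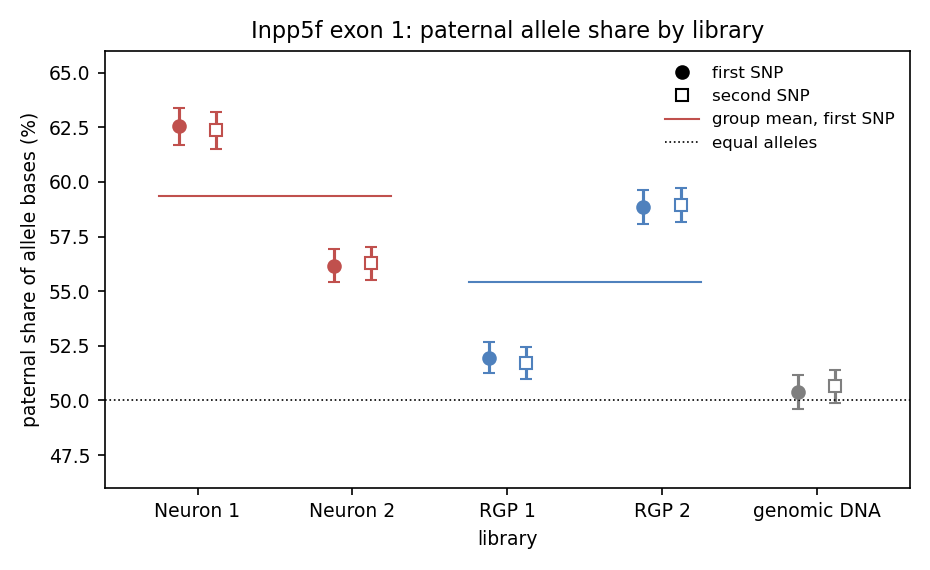
The paternal share of allele bases (vertical axis, %, not from 0) is plotted for each library at the first SNP (filled circles) and the second SNP (open squares), with 95% Wilson intervals, the group means as horizontal lines and a dotted line at equal alleles. Shares at the first SNP run from 52.0% to 62.6% in cDNA, the neuron and RGP libraries overlap, and genomic DNA is at 50.4%.

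The groups overlapped, since RGP replicate 2 was above Neuron replicate 2. Neurons exceeded RGPs by 3.95 points, less than the SD within either group, and a two-sided exact permutation test over libraries gave p = 0.667 (adjusted p = 1 over 3 such tests). With 6 arrangements the smallest p this design allows is 0.333. The difference rested on single libraries. It was 0.753 points without Neuron replicate 1, 0.504 without RGP replicate 1, 7.15 without Neuron replicate 2 and 7.39 without RGP replicate 2.

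The replicates of a group differed far beyond counting error. The SD between libraries was 11.0 times the counting SD in neurons and 12.8 times in RGPs. The span between replicates, 6.39 points in neurons and 6.89 in RGPs, was of the size of the excess over genomic DNA. Without RGP replicate 2 the RGP excess was 1.58 points, and without RGP replicate 1 it was 8.47.

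The second SNP gave nearly the same shares, mostly from the same reads. The paternal base made up 62.4% and 56.3% in Neuron replicates 1 and 2, 51.7% and 58.9% in RGP replicates 1 and 2, and 50.6% in genomic DNA. The SNPs differed by at most 0.258 points within a library. In RGP replicate 1 the second SNP also counted 108 maternal and 5 paternal reverse bases, and 109 forward reads skipped it. The SNPs share most reads and are not independent measurements.

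Bases that were neither parental base were rare. They numbered 0 to 4 per SNP and library, at most 0.0323% of bases. Over the other 194 positions the median share of non-reference bases was 0.0237% to 0.0281% per library. The highest single positions differed between libraries. C128611455T was found in 124 of 16492 bases in Neuron replicate 2, A128611473G in 66 of 18257 in RGP replicate 1 and G128611578T in 72 of 16349 in RGP replicate 2. A short deletion directly after base 122 was found in all 5 libraries, in 0.129% to 0.304% of reads, genomic DNA included (29 reads, 0.171%).

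Nearly every allele base came from 1 strand. At the first SNP the forward strand gave 100% of allele bases in Neuron replicate 1 and in genomic DNA and at least 99.98% in the other 3 libraries, so the reverse strand, with 0 to 3 bases per library, gave no share of its own. Neurons and RGPs differed in the forward-strand share by 2.82e-05 points (two-sided exact permutation p = 1, adjusted p = 1). Most reverse reads lay past this SNP in every library, so the test had little room to find a difference.

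Forward reads held both SNPs, so the parent of each SNP could be taken from the same read. In Neuron replicate 1, 12256 reads had an allele of quality 30 or more at both, with 4607 maternal at both, 7623 paternal at both and 26 that joined a maternal to a paternal base. Such joined reads made up 0.212% (95% Wilson interval 0.145% to 0.311%) in this library. They made up 0.401% (66 of 16441 reads) in Neuron replicate 2, 0.503% (91 of 18094) in RGP replicate 1 and 0.531% (83 of 15629) in RGP replicate 2.

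Genomic DNA had more joined reads, 389 of 16169 or 2.41% (2.18% to 2.65%), which was 4.53 to 11.3 times the share in the cDNA libraries. Both kinds were present in similar number, with 209 maternal then paternal and 180 paternal then maternal. With 1 genomic DNA library against 4, the smallest one-sided permutation p is 0.2, and no test was made. Joined reads averaged 0.307% ± 0.134 in neurons and 0.517% ± 0.0199 in RGPs (SD, n = 2 each). Both neuron libraries were below both RGP libraries, by 0.21 points in the mean, which by two-sided exact permutation has p = 0.333, the lowest value the design can reach (adjusted p = 1).

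**Figure D4:**
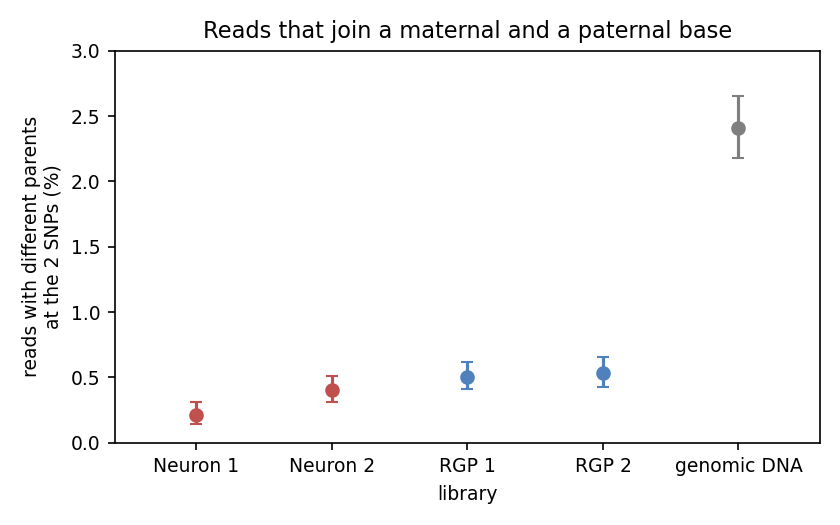
The share of reads that carried the maternal base at 1 SNP and the paternal base at the other (vertical axis, %) is plotted per library with 95% Wilson intervals. The cDNA libraries lie between 0.212% and 0.531%, and genomic DNA is at 2.41%.

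Counting only reads with the same parent at both SNPs left the shares in place. The paternal haplotype made up 62.3% and 56.3% of such reads in Neuron replicates 1 and 2, 52.0% and 59.0% in RGP replicates 1 and 2, and 50.5% in genomic DNA.

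A small set of reads skipped part of the region, as a spliced read skips an intron. There were 4 such gaps, each shared by at least 2 reads of a library. Of the neuron libraries, replicate 1 held 96 and replicate 2 held 9 gapped reads, and RGP replicate 1 held 407, which is 0.375%, 0.0262% and 1.10% of the reads of the region. RGP replicate 2 held 0 and genomic DNA held 1. A fragment read from both ends counts as 2 reads. All gaps opened and closed inside the region, so none joined exon 1 to another exon.

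The reference sequence on either side of each gap, 10 bases from each, is shown because the edges shared bases. Capitals mark bases that follow the gap and that also open the skipped stretch, so the aligner could have placed the gap at any of them.
Gap 1, bases 53 to 77 skipped, chr7:128611489-128611513: cttgaggcacGGACTCcagc
Gap 2, bases 58 to 129 skipped, chr7:128611494-128611565: ggcacggactCgccgcctcc
Gap 3, bases 65 to 136 skipped, chr7:128611501-128611572: actctggtggTCccggagcg
Gap 4, bases 81 to 135 skipped, chr7:128611517-128611571: tggaggaggaCTCCcggagc

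Gap 1 skipped 25 bases, gaps 2 and 3 skipped 72 bases each at different places, and gap 4 skipped 55 bases. The direct repeat at the edges was 6, 1, 2 and 4 bases long. No placement of any gap began with GT and ended with AG, the ends of most introns. Gap 2 in 1 of its 2 placements began with CT and ended with AC, which are those ends read on the opposite strand, where no gene is annotated.

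Gaps 1 and 3 were read mostly from 1 parental haplotype, by the first SNP in forward reads. For gap 4 the same rests on reverse bases at the second SNP, since its forward reads were not assigned an allele. These PCR reads are not independent molecules. Gap 1 was carried by 96 forward reads of Neuron replicate 1, and the 94 of them with an allele of quality 30 or more at the first SNP were all paternal. The same gap was carried by 62 forward reads of RGP replicate 1. Together with 1 read of gap 2, which also opens before the second SNP, those with an allele of that quality numbered 60 paternal and 2 maternal. Gap 3, found in 46 forward and 41 reverse reads of RGP replicate 1 alone, had 43 maternal and 1 paternal base at the first SNP. Gap 4, found in 146 forward and 111 reverse reads of that library alone, lies past the second SNP. Reverse reads reached that SNP almost only in this library, where 108 such bases were maternal and 5 paternal. In each of the other libraries 3 to 5 reverse bases were found there. Gap 2 was carried by 3 forward and 6 reverse reads in Neuron replicate 2 and by 1 forward read each in RGP replicate 1 and genomic DNA. The forward reads of Neuron replicate 2 had 2 paternal and 1 maternal base, and the genomic DNA read was paternal, too few to assign this gap to a parent.

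**Figure D5:**
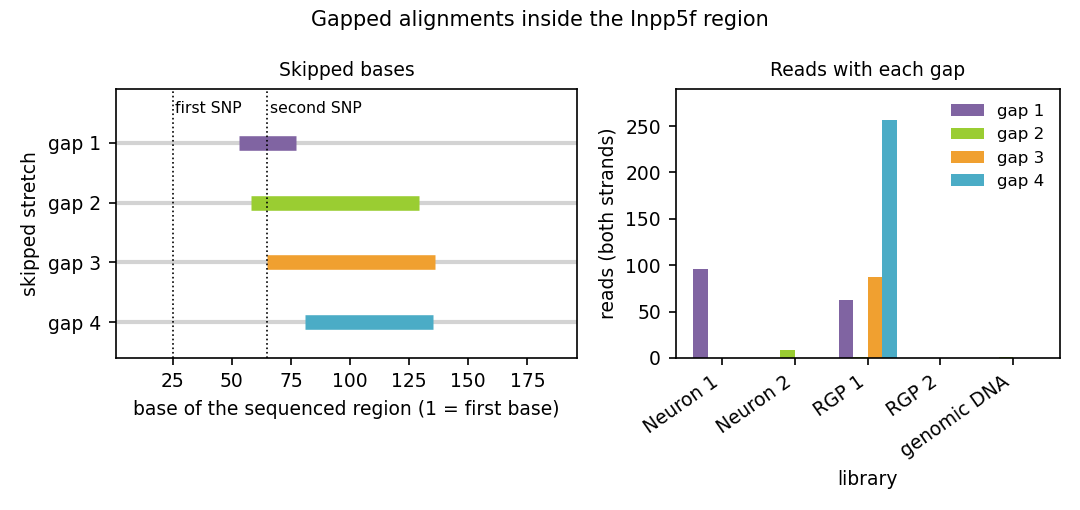
Left, the stretch skipped by each of the 4 gaps (coloured bars) is drawn on the 196 bases of the region, with the SNPs as dotted lines. Right, bars give the number of reads with each gap per library, up to 257 for gap 4 in RGP replicate 1, with none in RGP replicate 2 and 1 read, of gap 2, in genomic DNA.

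A set of reads that began inside the region, at base 117, was found in Neuron replicate 1 alone. There, 36 forward and 35 reverse reads began at base 117, and 35 forward reads ended at base 188. Forward bases fell there from 37 at base 188 to 2 at base 189. Reverse bases stayed at 13103, so the reverse reads did not share that end. The stretch of 72 bases from 117 to 188 holds neither SNP. Whether the fragments behind these reads held one was not tested. No read of the other 4 libraries began at that base.

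In the same libraries *Cdkn1c*, a maternally expressed gene for a cyclin-dependent kinase inhibitor, and *Ndn*, a paternally expressed gene for the protein necdin, were far from the *Inpp5f* balance. The paternal *Cdkn1c* share at A143458858G was 5.95% and 3.54% in Neuron replicates 1 and 2, 1.82% and 1.81% in RGP replicates 1 and 2, and 51.2% in genomic DNA. The paternal *Ndn* share at T62348457C was 100% in all 4 cDNA libraries, over 21 to 40 allele bases each, and 47.3% in genomic DNA. In Neuron replicate 1 the 40 allele bases were 37.4% of a depth of 107. Depth at this SNP was 21 to 107 in cDNA, whereas the deepest position of *Ndn* reached 30032 to 30041. By the mean absolute difference of the paternal share over the 4 cDNA libraries, *Ndn* was nearer to *Inpp5f*, at 42.6 points, and *Cdkn1c* farther, at 54.1 points. The *Inpp5f* shares lay between those of both genes in every cDNA library.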

How the data were processed

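Per the labels and the study's methods, the PCR fragments from a sample were sequenced together on a HiSeq instrument, reads were aligned to GRCm38 with STAR 2.5.0c, and pileups were made with SAMtools 1.3. The deposited pileups give, per position, the depth as a count of reads, the bases read on either strand, and base qualities between 14 and 37. The authors applied no normalization. Depth includes skipped bases, so alleles were counted from the bases themselves.

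Bases of quality 30 or more were counted at both SNPs, and the first SNP was the main one. Groups are means ± SD of libraries. Reads were followed between the SNPs by their order in the pileup, aligned with the fewest edits, a step that can undercount joined reads. Like the reader of the files, this step was tested on simulated data. Its simulated columns held no gapped reads and only bases of high quality, unlike the libraries. Gapped reads in RGP replicate 1 were assigned to a gap by the closest match in the order of the pileup. The 3 tests are two-sided exact permutation tests with Benjamini-Hochberg adjustment. The text names *Inpp5f*, any gene annotated there, *Cdkn1c* and *Ndn*, with counts of covered imprinted genes. The gene, lists and tests were chosen with earlier results of these data known. Python 3.11.15, scipy 1.17.1 and edlib 1.3.9.post1 were used.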

Additional observations from a re-analysis of the deposited data

Results flagged for a closer look

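Gapped reads and reads beginning at base 117, which the comparison of groups does not use as such, were more frequent in 3 cDNA libraries than in genomic DNA. Gapped alignments inside the region numbered 96 and 9 in Neuron replicates 1 and 2 and 407 in RGP replicate 1, against 0 in RGP replicate 2 and 1 in genomic DNA. Reads beginning at base 117 numbered 71 in Neuron replicate 1 and 0 in the other 4 libraries. Gapped forward reads hold the first SNP and so enter the allele counts there. Their part in the allele shares was not tested beyond their number. Gapped reads made up at most 1.10% of the reads of the region on both strands. Allele bases came almost only from forward reads, so that share is not an upper limit for the allele counts. Among forward reads at the start of a gap, gap 1 made up 0.773% in Neuron replicate 1. In RGP replicate 1, gaps 1, 3 and 4 made up 0.339%, 0.251% and 0.798%.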

How the results depend on the processing

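Under base quality minimums of 20, 35 or none, forward-strand bases, all 4 bases, the second SNP, division by the allele odds of genomic DNA, pooled reads, or reads with the same parent at both SNPs (added after the data had been seen), the paternal share stayed between 58.9% and 59.4% in neurons and between 55.0% and 55.5% in RGPs. In genomic DNA, where the odds division and pooling do not apply, it stayed between 50.3% and 50.6%. Leaving out 1 library gave 56.2% to 62.6% in neurons and 52.0% to 58.9% in RGPs, or 5.77 to 12.2 and 1.58 to 8.47 points above genomic DNA. Neurons minus RGPs was 3.75 points with pooled reads, 3.98 with the second SNP, 0.23 on the scale of log2 allele odds (exact permutation p = 0.667) and 0.504 to 7.39 when 1 library was left out.

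The difference in forward-strand share was 0.301 points at the second SNP (exact permutation p = 0.333), where the reverse reads of gap 4 lie, and it ran from -0.00907 to 0.00912 points and changed sign when 1 library was left out, with -0.00907 without Neuron replicate 1 and -0.00361 without RGP replicate 2. At the first SNP, reverse-strand bases alone gave no share, with 0 to 3 bases per library.

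The replicate numbers were not shown to pair the libraries. Same-numbered libraries deviated from their group means with a correlation of -0.058 over 103 regions outside the amplified ones, which are not independent. With the replicate block the differences were 10.6 and -2.69 points, with a mean of 3.95, and exact permutation of their signs (4 arrangements, smallest possible p 0.5) gave p = 1. For the forward-strand share the mean with the replicate block was 2.82e-05 points (p = 1 by the same exact permutation).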
